A study of Mus musculus with 4 samples.

Results

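Neuronal cytoskeleton genes were followed in neural precursors derived from mouse embryonic stem cells in which Geminin was knocked down. The set holds 10 genes chosen by name: the intermediate filament genes Nefl, Nefm and Ina, the tubulin gene Tubb3, the microtubule-associated protein genes Map2, Mapt and Dcx, the stathmin genes Stmn2 and Stmn3, and the growth cone gene Gap43. All 10 were found among the 21690 features of the deposited tables, 9 under the same symbol and Map2 under its older symbol Mtap2. The 4 libraries came from A2lox embryonic stem cells carrying a doxycycline-inducible Geminin knockdown, which had been kept on feeder fibroblasts and were then dissociated and plated on gelatin for differentiation towards neural cells in N2B27, a medium that contains no serum. The 3 knockdown libraries (1, 2 and 3), from separate experiments, were collected on day 5 after 500 ng doxycycline had been added at day 3, and the 1 control library was collected on day 5 from cells that had none. Doxycycline and loss of Geminin cannot be told apart in this design, since no culture given doxycycline without the construct was used here, and the control has no replicate.

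The neuronal cytoskeleton is built while a precursor leaves the cell cycle and grows an axon and dendrites. Neurofilament subunits copolymerise into the filaments that set axon calibre, microtubules made of tubulin dimers carry transport along the axon, and microtubule-associated proteins such as MAP2, tau and doublecortin stabilise them. Stathmins act the other way by binding free tubulin and promoting microtubule disassembly, which keeps the growth cone dynamic, and GAP-43 is a membrane phosphoprotein of growing axon tips. The transcripts of these genes are widely used to mark young neurons.

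Levels are given in FPKM, the fragments assigned to a gene per exon length and per mapped fragment of the library, so that levels of different genes can be set side by side. Absolute depth is unknown, but most features too low for a test moved in steps of whole reads. Of their ratios to the control, 87.9%, 85.9% and 85.0% in libraries 1, 2 and 3 matched a ratio of whole reads (12 at most) to within 0.2%, which gave relative depths of 1.00, 1.15 and 0.971. Library 1 stood closer to the control than libraries 2 and 3 did: among 12243 features with a mean of at least 1 FPKM, 1.35% lay at least 1 log2 unit from the control in library 1, against 6.26% and 5.46% in libraries 2 and 3. Gmnn, which encodes Geminin, was at 24.0%, 58.4% and 24.7% of the control in libraries 1, 2 and 3. The authors' deposited tables marked it in libraries 1 and 3 but not in library 2 (q-value 0.0722). Summed over 12 neural precursor markers, among them Sox1, Sox2, Pax6 and Nes, the level was 757.6 to 968.9 FPKM in the knockdown libraries and 770.5 in the control, and none of the 12 was called.

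The promoters of 5 members (Map2, Stmn3, Tubb3, Ina and Dcx) matched the RefSeq promoter table (GRCm38.p6). Shown here are the 250 bases before the start of 3 genes with different behaviour in these data: Tubb3, Dcx and Stmn3. Tubb3 rose in libraries 2 and 3 and had the highest levels of these 5 members there. Nefl and Nefm, which also rose there to high levels, had no matched promoter. Dcx was the member with the largest ratios, and Stmn3 was not called. Capitals mark the motifs searched on both strands.
Tubb3 (chr8:123411303-123411552, plus strand): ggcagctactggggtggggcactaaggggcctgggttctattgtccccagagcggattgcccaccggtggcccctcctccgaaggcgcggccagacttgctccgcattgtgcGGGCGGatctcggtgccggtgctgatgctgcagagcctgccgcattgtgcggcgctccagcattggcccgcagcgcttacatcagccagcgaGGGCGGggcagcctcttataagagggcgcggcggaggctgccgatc
Dcx (chrX:143933220-143933469, minus strand): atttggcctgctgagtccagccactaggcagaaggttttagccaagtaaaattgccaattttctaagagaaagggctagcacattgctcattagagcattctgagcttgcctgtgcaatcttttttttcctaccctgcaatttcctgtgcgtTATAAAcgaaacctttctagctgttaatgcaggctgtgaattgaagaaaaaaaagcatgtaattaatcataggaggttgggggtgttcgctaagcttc
Stmn3 (chr2:181314501-181314750, minus strand): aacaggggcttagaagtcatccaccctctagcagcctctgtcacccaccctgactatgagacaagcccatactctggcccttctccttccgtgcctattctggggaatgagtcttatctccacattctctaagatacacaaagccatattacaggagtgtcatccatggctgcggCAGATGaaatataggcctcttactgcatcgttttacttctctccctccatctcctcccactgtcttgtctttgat
The GC content of these windows was 68.0% for Tubb3, 41.6% for Dcx and 48.8% for Stmn3. The motifs were an E-box with the letters CAGCTG, a second E-box form with the letters CAGATG, the TATA box TATAAA and the GC box GGGCGG, and no match of one overlapped a match of another in the printed windows. Over the full 300-base windows, GGGCGG was found for Tubb3, Map2 and Ina and in 35.7% of all 32851 promoters. The E-box CAGCTG was found for Ina alone among the 5 genes and in 16.3% of all promoters. The form CAGATG was found for Stmn3 alone and in 17.2%. TATAAA was found for Dcx alone, and in 13.6% of all promoters. The 3 promoters shown therefore hold no searched motif in common, although Tubb3 and Dcx were both high in libraries 2 and 3.

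Of the 10 members, 5 were called higher in knockdown by the rule stated for the series, which asks that the authors' Cuffdiff tests mark a gene in 2 or more of the 3 tables, always in the same direction. These were Nefl, Nefm, Tubb3, Map2 and Mapt, and none was called lower. Over all 14477 features that could be called, 1.98% were called higher and 0.905% lower. Dcx could not be called, because only 1 of its 3 tests was usable. Each call came from libraries 2 and 3: library 1 held 0 members marked higher and 1 marked lower, library 2 held 7 marked higher and 0 marked lower, and library 3 held 5 marked higher and 1 marked lower. In these single tables the authors marked 0.909%, 3.23% and 3.33% of tested features as higher and 1.52%, 2.02% and 1.28% as lower. Leaving out library 1 kept the count at 5, which was also fixed beforehand, because these 5 were marked in libraries 2 and 3 and not in library 1. Leaving out library 2 or library 3 brought it to 0 by construction, because the 2 tables that remain must then both mark a gene. The 3 tables share 1 control library, so each Cuffdiff test sets 1 library against that library and not condition against condition.

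**Figure D1:**
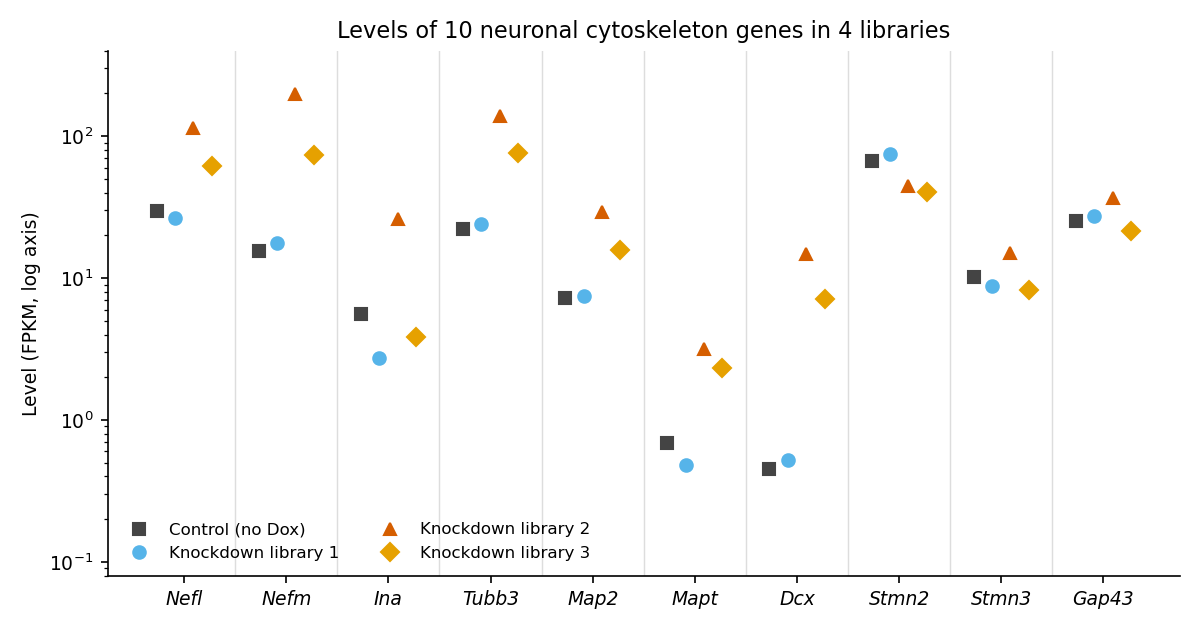
Level of each gene in FPKM (log axis) in the control and the 3 knockdown libraries, 1 point per library. Nefl, Nefm, Tubb3, Map2, Mapt and Dcx have libraries 2 and 3 above both the control and library 1, whereas Stmn2 has them below both.

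The neurofilament genes Nefl and Nefm lie on chromosome 14 (mm9), Nefl from 68701941 to 68705794 and Nefm from 68737602 to 68743061, on opposite strands with 31807 bases between them. Nefl, the light chain on which filaments are built, had 26.4 FPKM in library 1, 113 in library 2, 61.6 in library 3 and 29.7 in the control. Nefm, the medium chain, had 17.6, 198 and 74.2 FPKM against 15.6. For both genes library 1 lay near the control, and libraries 2 and 3 lay above both. Nefl was 3.81-fold (95% interval 2.68 to 5.43) and 2.07-fold (1.49 to 2.88) the control in libraries 2 and 3. Nefm was 12.7-fold (8.71 to 18.6) and 4.76-fold (3.43 to 6.62). These intervals were computed from the deposited ratio and test statistic and cover the error that Cuffdiff assumes between 2 libraries, not the spread between control cultures. Nefm exceeded Nefl only in libraries 2 and 3, where the ratio of their FPKM was 1.75 and 1.21, against 0.665 in library 1 and 0.524 in the control.

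Ina, which encodes alpha-internexin, a filament protein that appears early in neurons, did not follow the neurofilament pair. It had 2.75, 26.1 and 3.84 FPKM against 5.56 in the control, high in library 2 alone. The authors' deposited table marked Ina as lower in library 1 (q-value 0.0339) and as higher in library 2 (q-value 5.7e-06), so it was not called. In library 3 it was 0.684 of the control, with an interval from 0.345 to 1.36. The tables list Ina at the same position on chromosome 19, from 46961321 to 47098836, as Nt5c2, so reads may have been split between the genes, and the level of Ina is uncertain. Nt5c2 itself had 13.2, 14.3 and 19.1 FPKM against 11.7.

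Tubb3, which encodes the neuron-enriched class III beta-tubulin recognised by the TuJ1 antibody, lies on chromosome 8 from 125935464 to 125945910. Its level was 24.0, 138 and 75.8 FPKM in libraries 1, 2 and 3 and 22.2 in the control. Library 1 and the control were close together, and the ratio to the control was 6.20 (4.19 to 9.16) in library 2 and 3.41 (2.36 to 4.92) in library 3. Within the summed FPKM of 8 beta-tubulin genes, Tubb3 made up 1.14% in the control and 1.33%, 6.23% and 3.65% in libraries 1, 2 and 3. The sum itself was 1803 to 2213 FPKM in the knockdown libraries against 1953 in the control, and Tubb5, the most abundant isotype, remained the main part with 53.2% to 61.4% against 64.7%.

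**Figure D2:**
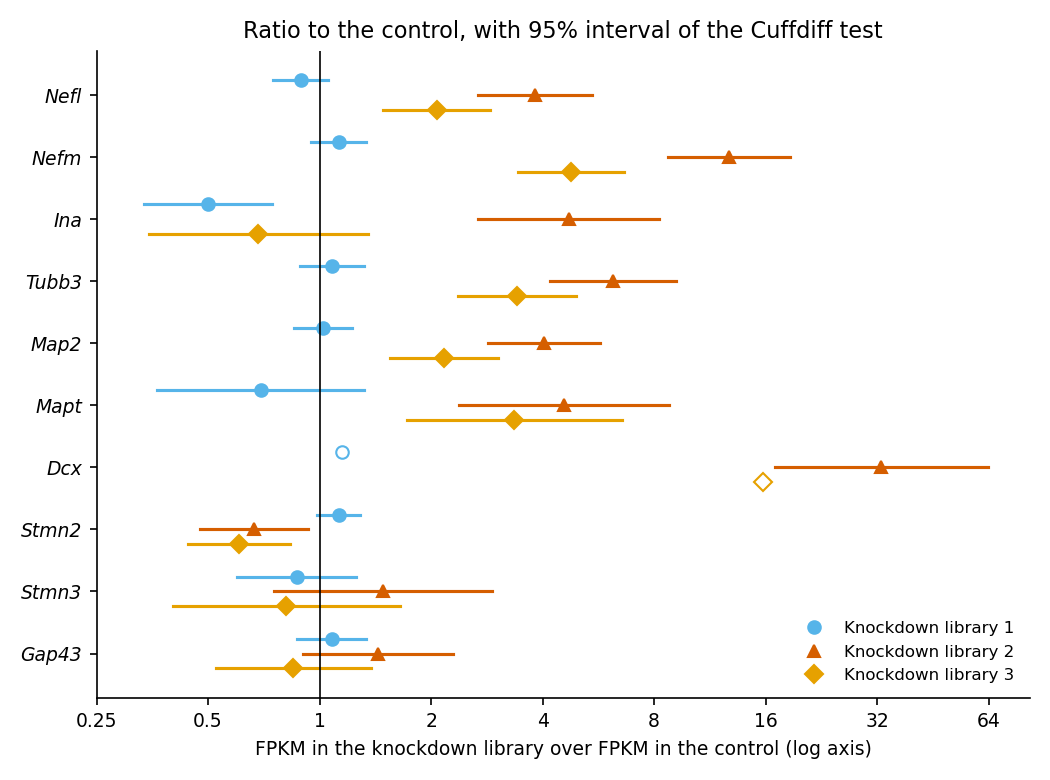
FPKM in each knockdown library over FPKM in the control (log axis), with lines for the 95% interval implied by the deposited Cuffdiff test. Open symbols mark Dcx in libraries 1 and 3, where the Cuffdiff test was marked as having too few data. The intervals of libraries 2 and 3 lie above 1 for Nefl, Nefm, Tubb3, Map2 and Mapt and below 1 for Stmn2.

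Among the genes for microtubule-associated proteins, Map2, whose product is enriched in dendrites, had 7.44, 29.4 and 15.8 FPKM against 7.28. It lies on chromosome 1 from 66221903 to 66489157. Mapt, which encodes tau, had 0.480, 3.16 and 2.32 FPKM against 0.692 and lies on chromosome 11 from 104092750 to 104193407. Dcx, the doublecortin gene of migrating young neurons, had 0.521, 14.9 and 7.13 FPKM against 0.454 and lies on chromosome X from 140290385 to 140367762. All 3 genes shared the order of Nefm and Tubb3, with library 2 highest, library 3 next, and library 1 beside the control. Map2 was 4.04-fold (2.86 to 5.71) and 2.17-fold (1.55 to 3.04) the control in libraries 2 and 3, and Mapt was 4.56-fold (2.38 to 8.76) and 3.36-fold (1.72 to 6.56). Dcx was 32.8-fold (16.9 to 63.6) the control in library 2 and 15.7-fold in library 3, where the authors' deposited table gave too few data for a test. Map2 and Mapt have 7 and 4 coding transcripts in GENCODE M21, and FPKM per gene does not show which of them changed. All 10 members reached a mean of 1 FPKM over the libraries, the level needed to enter the linear model, but Dcx and Mapt were below 1 FPKM in the control and passed it through libraries 2 and 3 only.

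Neither the stathmin genes nor Gap43 were called in either direction. Stmn2, which encodes the growth cone stathmin SCG10, lies on chromosome 3 from 8509527 to 8561604. It had 75.4, 44.6 and 40.5 FPKM in libraries 1, 2 and 3 and 66.9 in the control, so libraries 2 and 3 were the low ones. Its ratio was 0.666 (0.476 to 0.932) in library 2 and 0.605 (0.441 to 0.830) in library 3. The authors' deposited tables marked it in library 3 (q-value 0.0425) but not in library 2 (q-value 0.193), and it was therefore not called.

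Stmn3, the gene for the related protein SCLIP on chromosome 2 from 181041164 to 181049205, had 8.84, 15.1 and 8.28 FPKM against 10.2. Gap43, on chromosome 16 from 42248674 to 42340764, had 27.4, 36.5 and 21.5 FPKM against 25.4. Both were highest in library 2 and lowest in library 3, and the control lay within the range of the knockdown libraries. Neither was marked in any table, and the intervals do not show that they stayed level: Stmn3 was 1.48 (0.752 to 2.92) and 0.813 (0.402 to 1.65) of the control in libraries 2 and 3, and Gap43 was 1.44 (0.904 to 2.29) and 0.848 (0.524 to 1.37). Stmn2 was 16.8% of the summed FPKM of the 4 stathmin genes in the control and 17.4%, 7.85% and 10.7% in libraries 1, 2 and 3. FPKM of Tubb3 over that of Stmn2 was 0.332 in the control, 0.319 in library 1, 3.09 in library 2 and 1.87 in library 3.

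**Figure D3:**
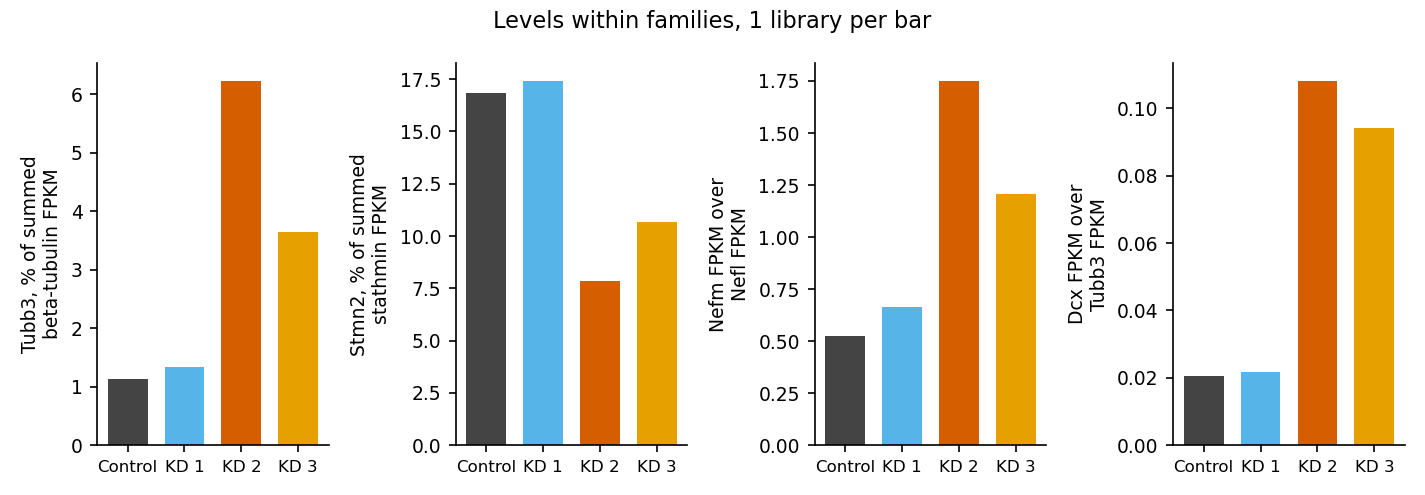
Tubb3 as a percentage of the summed FPKM of 8 beta-tubulin genes, Stmn2 as a percentage of that of 4 stathmin genes, and the FPKM of Nefm over Nefl and of Dcx over Tubb3, with 1 bar per library (KD, knockdown). Libraries 2 and 3 have more Tubb3, less Stmn2 and more Nefm and Dcx relative to their partners than the control and library 1, as in the Tubb3 shares of 6.23% and 3.65% against 1.14% and 1.33%.

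The order of the members by level thus differed between libraries. In the control Stmn2 was the highest of the 10, followed by Nefl, Gap43, Tubb3, Nefm, Stmn3, Map2, Ina, Mapt and Dcx. Stmn2 also led in library 1. In library 2 the first places were held by Nefm, Tubb3 and Nefl, and in library 3 by Tubb3, Nefm and Nefl, with Stmn2 in place 4 in both. Over the knockdown libraries the means were 96.7 ± 92.5 FPKM for Nefm, 79.2 ± 56.9 for Tubb3, 67.1 ± 43.8 for Nefl, 53.5 ± 19.0 for Stmn2 and 28.5 ± 7.56 for Gap43 (SD, n = 3). Map2 had 17.6 ± 11.1, Ina 10.9 ± 13.2, Stmn3 10.7 ± 3.78, Dcx 7.51 ± 7.19 and Mapt 1.99 ± 1.37 FPKM (SD, n = 3). In this order the step from Stmn2 to Gap43 was larger than the larger SD of the pair, and all other neighbours differed by less than that. The SD is taken between libraries, so it does not show whether an order held within each library. In every knockdown library Stmn2 exceeded Gap43, Gap43 exceeded Map2, Map2 exceeded Ina, Stmn3 exceeded Dcx and Dcx exceeded Mapt. The other neighbouring pairs changed order between knockdown libraries.

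On the log2(FPKM + 1) scale the median ratio of the 10 members to the control was 0.05, 1.89 and 1.00 in libraries 1, 2 and 3, against -0.01, 0.03 and 0.01 for all 12243 features. Averaged over the libraries the members' median was 0.81, against 0.01 for all features, and it was 1.29 without library 1 and 0.41 without library 2. Libraries 2 and 3 were both above library 1 and the control for 6 members, an order found in 31.7% of all features, and both below for 1 member, Stmn2, against 22.4%. All 3 knockdown libraries were above the control for 4 members, against 22.9% of features, and below it for 0, against 22.6%. A ratio of 1 log2 unit or more, in no fewer than 2 libraries, was reached by 5 members, Nefl, Nefm, Tubb3, Map2 and Dcx, against 2.47% of features, and by none in the lower direction, against 1.22%. Without Dcx and Mapt, which passed the level filter only through libraries 2 and 3, 4 of 8 members reached this fold, 4 were called by the series' rule, 4 had libraries 2 and 3 both above library 1 and the control, and 3 were above the control in all 3 knockdown libraries. Over these 8, libraries 1, 2 and 3 had median log2 ratios of 0.07, 1.89 and 0.40, so that the median in library 3 rested on Dcx and Mapt, and the median of the averages was 0.59. Mapt was just short of this fold on that scale, with log2 ratios of 1.30 and 0.97 in libraries 2 and 3, because adding 1 to values near 1 FPKM shrinks them.

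Library 2 was above library 3 for all 10 members, a comparison that does not use the control, against 52.1% of all features. The median log2 difference between these libraries was 0.86 for the members and 0.01 for all features. The gap ranged from 1.10-fold for Stmn2 to 6.79-fold for Ina, and it was 1.84-fold for Nefl, 1.82-fold for Tubb3 and 1.86-fold for Map2. Gmnn was also higher in library 2 (65.9 FPKM) than in library 3 (27.9) or library 1 (27.0), against 113 in the control. Its ratio to the control in library 2 was 0.584, with a 95% interval from 0.404 to 0.844. The library with the most Gmnn left among the knockdowns held the highest level of 9 members. Library 1, with as little Gmnn as library 3, held most members near the control. A link between the level of Gmnn and those of the members was not tested.

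A linear model over all 3 knockdown libraries and the control (limma) called 0 of the 10 members, and none had an unadjusted p under 0.05. Over 12243 features it called 0.0245% higher and 0.131% lower, and 1.32% had an unadjusted p under 0.05. The largest fitted changes were 2.00 ± 1.40 log2 units (standard error) for Dcx and 1.98 ± 1.37 for Nefm, followed by 1.47 ± 1.00 for Tubb3, 0.97 ± 0.75 for Map2, 0.92 ± 0.83 for Nefl and 0.69 ± 0.68 for Mapt. Stmn2 had -0.37 ± 0.39. Adjusted p-values (limma, Benjamini-Hochberg) were 0.993 to 0.999 for the 10 genes. The fit had 2 residual degrees of freedom, and the spread it used includes the distance of library 1 from the other knockdown libraries.

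The other cytoskeleton genes were taken from 6 lists with 112 members, all found in the tables. Of the 106 with enough usable tests to be called, 7 were called higher and 4 lower, against 1.98% and 0.905% of all features that could be called. Among 11 other intermediate filament genes 2 rose and 2 fell by the series' rule. Nefh, the heavy neurofilament chain, had 1.33, 2.56 and 2.12 FPKM against 0.445. Krt8 and Krt18, the keratin pair of simple epithelia, had 150, 22.9 and 60.4 and 176, 15.1 and 59.7 FPKM against 139 and 155. Vim, the vimentin gene of precursors and mesenchymal cells, named here after its values were seen, had 376, 1005 and 958 FPKM against 388. Libraries 2 and 3 were thus low in both keratins and high in vimentin, while library 1 resembled the control.

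Of 15 other tubulin genes Tubb2a and Tubb2b rose and Tubb5 fell. Tubb2a had 104, 189 and 175 FPKM against 89.5, and Tubb2b had 183, 383 and 291 against 182. Their sequences are so alike that reads may be assigned to either, which makes both levels uncertain. Tubb5 had 1107, 1176 and 1148 FPKM against 1264, a small difference marked in all 3 tables. Its change was -0.14 log2 units on average, far smaller than that of Tubb3.

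Among 28 other genes of microtubule-associated proteins 0 were called, and Mid1, the most abundant of them, had 257, 194 and 215 FPKM against 263. Neither other stathmin gene was called, and Stmn1, the ubiquitous stathmin, had 338, 484 and 315 FPKM against 308. Of 24 genes for severing enzymes, tubulin modification and motors, only Kif1a, which encodes an axonal motor for synaptic vesicle precursors, was called. It had 21.9, 13.2 and 13.1 FPKM against 20.7 and fell, as low in library 2 as in library 3. Of 32 growth cone and cortical genes 3 rose, and 29 were not called. Add2, the gene of beta-adducin, had 1.15, 9.11 and 5.41 FPKM against 1.05. Dpysl3 had 31.9, 61.4 and 51.8 against 29.3, and Epb41l3 had 10.5, 21.5 and 21.8 against 9.95. All 3 resembled the control in library 1. For the growth cone list as a whole the log2 ratios in libraries 1, 2 and 3 had medians of -0.02, 0.11 and 0.03, and those of the microtubule-associated list were 0.02, 0.13 and -0.01. Without library 2, or without library 3, Nefh, Vim, Krt8, Krt18, Tubb2a, Tubb2b, Kif1a and the 3 growth cone genes lost their calls, again by construction, because they were marked in those tables alone.

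**Figure D4:**
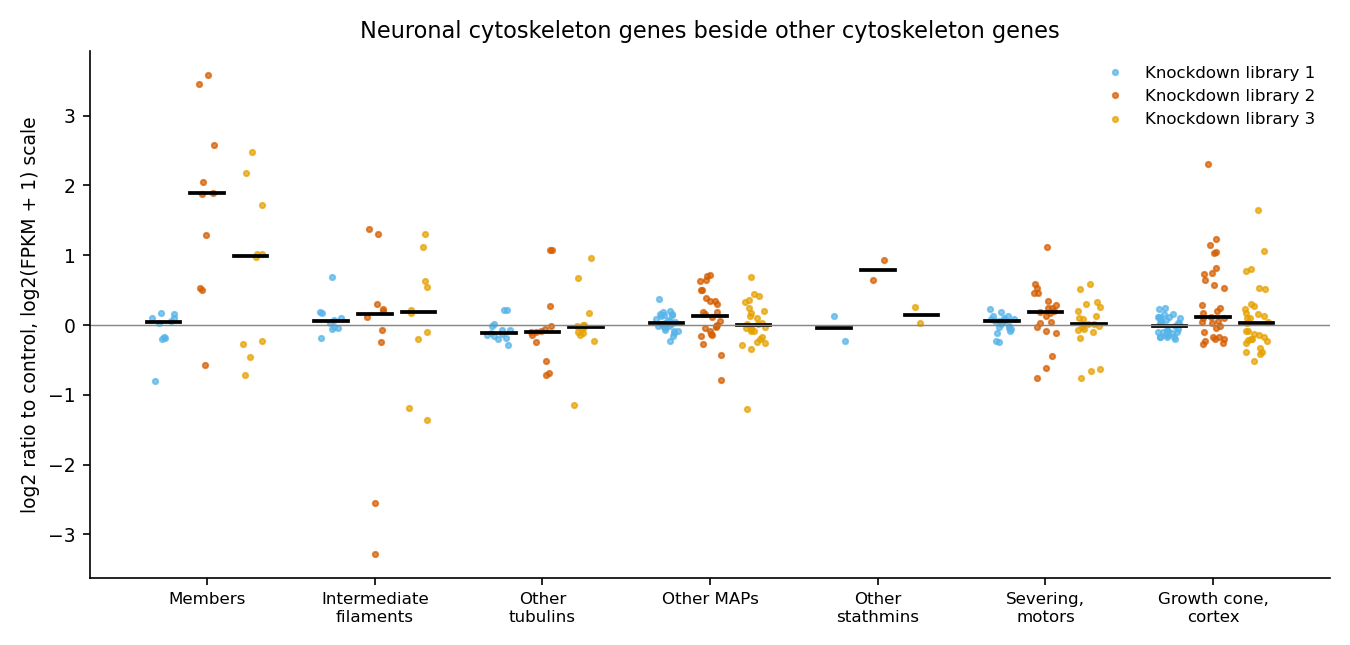
Log2 ratio to the control of each gene with a mean of at least 1 FPKM, for the 10 members and 6 lists of other cytoskeleton genes. Points are genes, colours are knockdown libraries and black bars are medians, which for the members are 0.05, 1.89 and 1.00 in libraries 1, 2 and 3 and for the growth cone and cortex list -0.02, 0.11 and 0.03.

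Some markers of several cell types were called higher, also through libraries 2 and 3. Over all features that could be called, 1.98% were called higher and 0.905% lower, so 0 or 1 call in a short list says little. Among 21 measured neuronal markers outside the cytoskeleton, 19 of which could be called, 7 rose and 0 fell. Those that rose were Elavl4, Chgb and Ncam1, which had more than 1 FPKM in the control, and Nhlh1, Nhlh2, Neurod4 and Neurog1, which had less. In the control Nhlh1 had 0.470 FPKM, Nhlh2 0.146, Neurod4 0.390 and Neurog1 0.524. The summed level of the 21 was 90.6 FPKM in library 1, 257 in library 2, 170 in library 3 and 109 in the control. Uchl1, the most abundant of the 21 in every library, was 1 of the 14 that were not called. It had 47.9, 58.5 and 68.8 FPKM against 66.1 and was marked lower in library 1, so it weighs heavily on the sums. Syn1 was listed at 0 in all libraries because its estimate had failed. Of 9 pluripotency markers 8 rose, with sums of 73.8, 323 and 527 FPKM against 53.2, highest in library 3, whereas the members were highest in library 2. Of 11 fibroblast markers, 9 of which could be called, Postn and Lox rose, with sums of 30.0, 47.2 and 74.7 FPKM against 27.1. Of 9 glial markers only 3 could be called and none of these was, their sums over all 9 were 3.39 to 5.82 FPKM against 7.35, and Olig1 was listed at 0 throughout. Mbp was listed at 0 as well, but because its estimate had failed, so the sums hold no level for it. Among 8 endoderm markers, 6 of which could be called, 1 rose, with sums of 94.5 to 119 FPKM against 93.5, and Afp was listed at 0 throughout. Among 8 mesoderm markers, 5 of which could be called, 1 rose, with sums of 13.1 to 27.9 FPKM against 12.7, and Mesp1 was listed at 0. Their part in the members' levels was not tested, and in bulk RNA a change in the number of neurons and a change in RNA per neuron cannot be told apart.

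Of 9551 other features with a mean of at least 5 FPKM, 5 came nearest to the median profile of the members over the 4 libraries. Likeness was the Euclidean distance between centred log2(FPKM + 1) values, and it was 0.162 for Nrarp, 0.163 for Ntn1, 0.170 for Igfbpl1, 0.246 for Miat and 0.249 for Prmt8. Nrarp, a feedback inhibitor of Notch signalling, had 8.95, 35.1 and 21.6 FPKM against 10.9. Ntn1, the axon guidance ligand netrin-1, had 14.1, 58.1 and 29.8 against 17.9. Igfbpl1 had 2.84, 13.7 and 6.31 against 2.85, Miat, a long noncoding RNA, had 14.0, 45.3 and 27.4 against 14.6, and Prmt8, an arginine methyltransferase, had 9.58, 31.8 and 18.2 against 9.91. Among the members themselves Nefl (0.117) and Map2 (0.154) lay nearest to that median profile and Stmn2 (2.24) farthest from it.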

How the data were processed

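RNA was sequenced from 3 knockdown libraries and 1 control. The submitters' processing notes name TopHat, Cufflinks and Cuffdiff and the build mm9, with neither tool versions nor gene models (not given in the sources used here). There were 3 deposited tables, each of which holds, per the file headers, the FPKM of 1 knockdown library and of the control, with a Cuffdiff p-value, and a q-value, test statistic and log ratio treated as scores. The authors' mark of significance corresponds in every case to a deposited q-value under 0.05 with a usable test. Locus starts in the deposited tables count from 0 and were raised by 1.

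Ratios were formed within each table. A linear model with a trended prior was fitted in limma 3.58.1 (R 4.3.3) to log2(FPKM + 1). It took in 12243 features whose estimates had not failed and whose mean FPKM reached 1, with Benjamini-Hochberg adjustment at 0.05. The fit assumes that the lone control varies as the knockdown libraries do. An exact permutation test of 3 against 1 was not run, because its smallest p is 0.25 (one-sided) or 0.5 (two-sided). Nothing in the labels beyond separate experiments describes the replicates. Intervals are 95% normal intervals on the log ratio, with the standard error taken as the deposited log ratio over the test statistic.

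The members and lists were chosen with earlier results of these data known. The naming rule took all members, Gmnn, up to 3 called genes of each cytoskeleton list with the largest mean ratio or the most abundant one, and the 5 features of most similar profile. Neuron, precursor, pluripotent, fibroblast, glia, endoderm and mesoderm markers were counted as lists. Of the neuronal markers, 1 was not matched to a feature and is not used here. Alternatives covered the pseudocount, level filter, prior, scaling, control value, marking rule, fold and each library left out.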

Additional observations from a re-analysis of the deposited data

How the results depend on the processing

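The 5 members called higher by the series' rule became 0 when a mark was required in all 3 tables, 6 when 1 table sufficed and 4, without Mapt, at a deposited q-value under 0.01. With single libraries left out the count ranged from 0 to 5, a range fixed by the marks, which for these members lie in libraries 2 and 3 alone. Members called lower numbered 1, Stmn2, when 1 table sufficed, and 0 in the other versions. By the fold rule 5 members were higher at 1 log2 unit, 6 at 0.58 and 2, Nefm and Dcx, at 2 log2 units. The shares of all features under these altered marking and fold rules are not given here. These counts therefore describe the members only and cannot be set against all features. limma called 0 members under each of 11 alternatives, with adjusted p of at least 0.406, although the total of features called ranged from 0 without library 3 to 228 with no filter on low values, against 19. The median over the members of the mean log2 ratio ranged from 0.41 to 1.29 with a library left out and from 0.80 to 0.99 under the other settings of the fit. Of the single-member ratios, 106 of 109 kept their direction. Without library 2 the mean log2 ratio reversed for 3 members, and with single libraries left out it ranged from -0.62 to 0.80 for Ina, from -0.23 to 0.17 for Stmn3 and from -0.061 to 0.31 for Gap43. In libraries 1, 2 and 3 the log2 ratios were -0.80, 2.05 and -0.45 for Ina and -0.18, 0.53 and -0.27 for Stmn3. For Gap43 they were 0.11, 0.51 and -0.23. Leaving out library 2, the highest in each case, therefore turned these means negative. Why library 2 was highest was not tested. Mapt was left out by the filter at 5 FPKM. No paired analysis was possible because the groups share 1 replicate number. Leaving out Dcx and Mapt, chosen after seeing the data, gave 4 members called higher and a median of 0.59. Dcx had no usable test in 2 of 3 tables, where its deposited status was too few data.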
